A study of Sus scrofa with 6 samples.

Results

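Among the cells of day 11 (D11) porcine midbrain-like organoids, a set of cells, taken below a limit on mitotic genes, carried transcripts of WNT8B, DBX1, EMX2 and OTX1, genes of forebrain and diencephalic neuroepithelium. A cell was taken where it held 2000 or more UMIs (molecules counted after removal of PCR copies) and at most 7000 detected genes, at least 1 UMI of 2 or more of these 4 genes, fewer than 2 of the floor plate genes FOXA2, SHH and CORIN, under 3 UMIs of the neuron gene STMN2, and fewer than 3 of the mitotic genes TOP2A, CENPF, NUSAP1, UBE2C and BIRC5. The rule took 936 of 13048 cells within the limits of UMIs and genes in D11 replicate A and 469 of 14675 in replicate B. This is 1405 of 27723 cells, drawn from 36699 barcodes on D11 and 104820 in the whole series. They are called rule cells here.

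The organoids were grown from 1 embryonic stem cell line, IVF_1_ pESC_FIW, derived from an in vitro fertilised pig blastocyst, and all groups share that line. Embryoid bodies were patterned with SB431542, Noggin, SHH-C24II and CHIR99021 from the start until the medium was replaced on day 5. FGF8 was given from day 5, with BDNF and ascorbic acid added from day 8. D11 cells had thus seen every one of these agents and preceded embedding in Matrigel. Organoids of D28 and D45 had then been grown with BDNF, GDNF, ascorbic acid, db-cAMP and DAPT. Single-cell RNA-seq was made with the 10x GEM-X 3' v4 kit in 6 libraries, 2 each on D11, D28 and D45. The study calls the pair of libraries of each day biological duplicates, without saying at which step of culture they were separated, and p-values measure the spread between these libraries only. The labels give the cell type as midbrain dopaminergic neurons, but the D11 libraries held mostly progenitors, with non-mitotic cells of 3 or more STMN2 UMIs making up 9.75% and 10.4% of cells.

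All values are UMI counts summed over the cells of a class in 1 library and given as CPM, which scales every such sum to the same total. The rule cells held 9673174 UMIs in replicate A and 5012303 in B, with medians of 10384.5 and 10760 per cell. The other D11 cells were split into 4 classes. They are mitotic cells (4588 and 5085), STMN2 cells (1272 and 1530), floor plate gene cells with 2 or more of FOXA2, SHH and CORIN (3354 and 4250), and marker-low cells, which passed the same exclusions with fewer than 2 of the 4 markers (2898 and 3341). Marker-low cells were shallower, with medians of 9186 and 9077 UMIs. The libraries shared 86 barcodes on D11. Mitochondrial genes held a median of 1.65% and 1.77% of the UMIs of rule cells, against 1.36% and 1.45% in other cells. Cells called as doublets made up 2.24% and 3.41% of rule cells, against 6.49% and 12.1% of the rest.

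The neural tube is divided along its length into forebrain, midbrain and hindbrain, and across its wall from the floor plate, a source of Sonic hedgehog, to the roof plate, a source of WNT and BMP proteins. The diencephalon is the caudal part of the forebrain and borders the midbrain. The hypothalamus lies in the ventral part of the forebrain and holds neurons that make peptide hormones. Progenitors in each region carry their own set of homeodomain and other transcription factors, and high WNT signalling in early neural cells favours caudal fates.

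WNT8B encodes a WNT ligand of the forebrain midline and hypothalamus and lies on chr14:111562278-111589897 (Sscrofa11.1, RefSeq). On the same chromosome is EMX2, a homeobox gene of dorsal forebrain, at chr14:127649675-127656972. DBX1, a homeobox gene of progenitor domains in diencephalon, hypothalamus and hindbrain, lies on chr2:39229392-39234304. OTX1, a homeobox gene of forebrain and midbrain, lies on chr3:78895142-78903045. The cells were selected on their UMI counts of the 13 genes of the rule, so the levels of the 4 markers are given with no test. WNT8B stood at 305 and 286 CPM in rule cells of replicates A and B, against 48.4 and 30.5 in all other cells. DBX1 stood at 185 and 220 CPM against 31.5 and 27.8. EMX2 was at 115 and 88.8 CPM against 18.9 and 11.2, and OTX1 at 116 and 113 CPM against 22.5 and 16.9.

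The rule sets a limit on a count of detected genes, and whether the cells it takes form a class of their own was not tested. Exactly 2 markers were found in 369 rule cells of replicate A and 185 of B, 3 markers in 379 and 191, and all 4 in 188 and 93. Just outside the limit, 445 and 408 cells held 1 marker, and 2453 and 2933 held none. WNT8B stood at 227 and 195 CPM in the cells with exactly 2 markers and at 67.3 and 37.2 CPM in those with 1. The exclusions removed 1562 and 1177 cells with 2 or more markers for the mitotic genes alone, 90 and 76 for STMN2 alone, and 33 and 32 for the floor plate genes alone. The share of cells taken was 5.18% ± 2.81 (SD, n = 2 libraries), with 7.17% in A and 3.20% in B. After each cell was thinned to 2000 UMIs it was 3.17% ± 1.34, with 4.12% and 2.21%, so replicate A held the larger share at both depths.

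Levels of 2 genes outside the rule were lowest in cells with no marker and higher with 1 and with 2. Both are among the genes found higher in rule cells, so a low level with no marker follows that choice in part. NKX2-1, a homeodomain factor of the hypothalamus and ventral telencephalon, was at 10.4 and 5.63 CPM in D11 cells of replicates A and B with no marker. It was at 77.1 and 37.2 CPM with 1 marker, 154 and 99.2 with 2, 169 and 145 with 3, and 187 and 137 with 4. PMCH, which encodes the precursor of melanin-concentrating hormone, a hypothalamic neuropeptide, was at 12.7 and 10.3 CPM with no marker, 160 and 284 with 1, 280 and 451 with 2, 416 and 799 with 3, and 365 and 394 with 4. PMCH in both libraries and NKX2-1 in B were lower with 4 markers than with 3. Cells with 1 marker lay between those with none and those with 2 for both genes. Deeper cells show more markers, and the median UMI count rose from 9297 in rule cells of A with 2 markers to 11538 in those with 4.

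**Figure D1:**
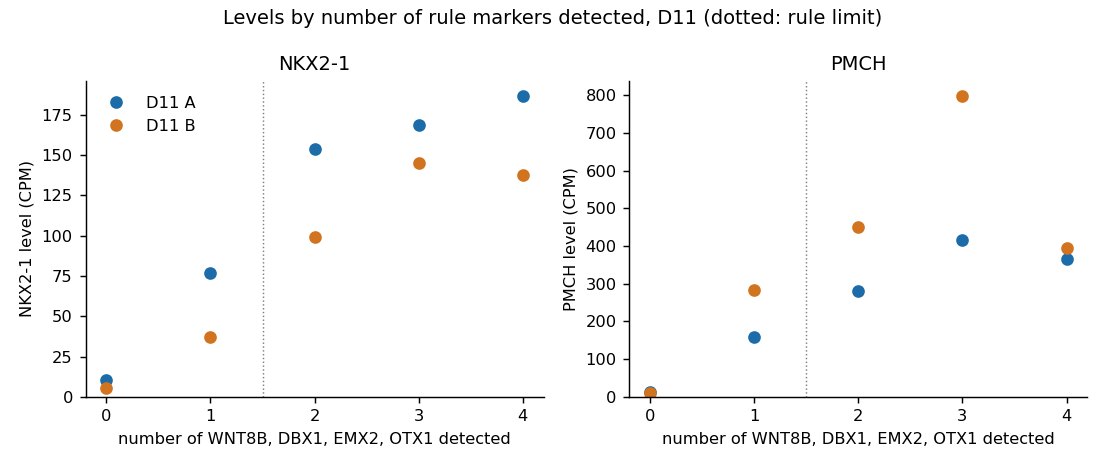
Level of NKX2-1 and PMCH (CPM, vertical axis) in D11 cells of replicates A and B by the number of the 4 markers detected (horizontal axis); the dotted line is the limit of the rule, and 1 point is 1 library. NKX2-1 was lowest with no marker, at 10.4 and 5.63 CPM, and cells with 1 marker lay between that level and those to the right of the line.

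Against all other D11 cells, 7 of 11 tested genes of the prethalamus, eminence and hypothalamus list were higher in rule cells and 1 lower. All 12 tested genes of the floor plate list were lower, with 6 of 10 of the dorsal and caudal midbrain list and 3 of 6 of the hindbrain list. Of 19119 genes tested outside the 13 of the rule, 1906 were higher (9.97%) and 2841 lower (14.9%) with edgeR (quasi-likelihood fit, threshold of 0.05 on p-values adjusted after Benjamini and Hochberg), or 24.8% in either direction. The counts of list members below are to be set against these shares of all genes, and those against marker-low and floor plate gene cells against the shares of those comparisons. The 2 libraries of one class lay apart from those of the other for 62.6% of genes. With the replicate as a block, since both classes come from the same 2 libraries, 7478 genes passed. In a fit of the classes of all 6 libraries 1722 passed, and this fit was also run with D11 replicate A or D11 replicate B left out of it. Against marker-low cells, which passed the same exclusions and differ in selection by the 4 markers only, 2732 of 17749 genes were higher (15.4%) and 3159 lower (17.8%), 33.2% in all, and libraries lay apart for 66.3%. The fit of 6 libraries called 2416 of these, with 316 without D11 replicate A and 320 without B. Against floor plate gene cells, 3452 genes were higher (19.4%) and 3826 lower (21.6%), 41.0% in all and 70.1% with libraries apart, with 3832 called in the fit of 6 libraries, 796 without D11 replicate A and 968 without B. The choice of cells was made on these same cells, and genes that vary with the 13 rule genes differ with them. Of the genes that the text names anywhere, 125 passed the threshold in the first of these comparisons, of which 89 passed in the fit of 6 libraries, 32 without D11 replicate A and 39 without B. Those that did not pass in the fit of 6 libraries were ACTC1, BARHL2, BMP6, DCN, DCX, EN1, FABP7, FEZF1, FRZB, GADD45G, GLI3, HES1, HEY1, ID3, LHX2, LIX1, LUZP2, NPR3, PAX5, PCLAF, PCNA, PMCH, PTCH1, ROBO1, RSPO2, RSPO3, RUNX1T1, SIM1, SIX3, SLC1A3, SPON1, SPRY2, ST18, SULF1, TCF7L2 and TUBB3, and DESeq2 did not call DCX, EN1, GLI3, LUZP2, RSPO2 and TAFA2. Of the genes named that passed in any of these 3 comparisons, PCLAF alone changed direction in a setting tried. TMM scaling set the median log2 difference of all genes between -0.0222 and -0.0204, and plain CPM set it at 0.106 in the floor plate comparison.

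In the list of prethalamus, eminence and hypothalamus genes, 7 of 11 tested members were higher than in all other D11 cells and 1 lower, with a median log2 difference of 1.96 against -0.0221 over all genes. The summed level of the list was not higher throughout, at 278 and 229 CPM in rule cells of replicates A and B, 257 and 288 in marker-low cells and 385 and 380 in floor plate gene cells. Members given with levels below are all among the higher ones, and the lower member is not reported by name here. NKX2-1 (chr7:63487200-63491580) stood at 168 and 126 CPM in rule cells of replicates A and B and at 42.4 and 25.0 CPM in all other cells. The difference was 2.08 on the log2 scale (SE 0.20, edgeR adjusted p = 1.27e-06) and kept its call without D11 replicate A (adjusted p = 0.0376) and without B (adjusted p = 0.0470). In marker-low cells NKX2-1 was at 20.5 and 9.61 CPM, and in floor plate gene cells at 3.41 and 2.22 CPM. The order from rule cells down to marker-low and then floor plate gene cells held in both libraries. After thinning to 2000 UMIs per cell, NKX2-1 was found in 28.4% and 21.1% of rule cells, 3.59% and 1.92% of marker-low cells and 0.626% and 0.329% of floor plate gene cells.

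Other members of this list were forebrain transcription factors. LHX5, a LIM homeodomain factor of anterior forebrain, was at 40.5 and 36.5 CPM against 9.47 and 5.82 (log2 difference 2.29, SE 0.18, edgeR adjusted p = 2.48e-07). FEZF2, a zinc finger repressor of forebrain, was at 18.2 and 13.8 CPM against 2.33 and 1.81 (log2 difference 2.92, SE 0.19, edgeR adjusted p = 3.75e-08). Its relative FEZF1 was at 20.9 and 15.2 CPM against 5.65 and 2.57, and SIX3, which defines the most anterior neural plate, at 10.1 and 15.2 CPM against 3.31 and 2.95. The libraries of the classes did not overlap for any of the 4, as for 62.6% of all genes. FEZF1 and SIX3 did not pass in the fit of 6 libraries (adjusted p = 0.176 and 0.188), and none of LHX5, FEZF1, FEZF2 and SIX3 passed when either D11 library was left out of it. No UMI of DLX1, DLX2, HMX3 or OTP, genes of prethalamus and hypothalamus, was counted in rule cells, which allows up to 0.31 CPM in A and 0.599 CPM in B.

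The list of diencephalon, thalamus and pretectum genes gave another picture. Of its 12 tested members, 3 were higher and 5 lower, with a median log2 difference of -1.08. LHX2, a LIM homeodomain factor of forebrain, was higher at 34.6 and 24.5 CPM against 14.2 and 7.69 (log2 difference 1.41, SE 0.23, edgeR adjusted p = 0.000267). TCF7L2, a WNT effector prominent in thalamus and pretectum, was higher at 159 and 120 CPM against 105 and 83.5 (log2 difference 0.52, SE 0.15, edgeR adjusted p = 0.0166), and stood at 110 and 85.8 CPM in marker-low and 96.3 and 84.3 CPM in floor plate gene cells. BARHL2, a homeobox gene of diencephalon, was at 5.58 and 21.1 CPM against 1.04 and 1.46 (log2 difference 3.22, SE 0.42, edgeR adjusted p = 3.61e-05). All 3 calls were lost in the fit of 6 libraries (adjusted p = 0.0677 for LHX2, 0.112 for BARHL2 and 0.280 for TCF7L2), and that of TCF7L2 also with the rule applied after thinning and with at least 3 markers asked for. Among those lower, IRX1 was at 1.24 and 1.80 CPM against 6.56 and 8.29, IRX2 at 1.34 and 0.998 CPM against 9.35 and 11.0, and FOXP2 at 36.7 and 62.9 CPM against 308 and 293. IRX1 and IRX2 are Iroquois homeobox genes of caudal diencephalon, midbrain and hindbrain, and FOXP2 is carried by several neuronal and progenitor types. OLIG3 and GSX1, defining genes of thalamic and pretectal progenitors, had no UMI in either library, in rule cells or in any other D11 class. PAX6, found through much of the dorsal diencephalon and telencephalon, was at 0.413 CPM in A and had no UMI in B. The label diencephalic-type therefore rested on the 4 markers that chose the cells and on some genes of the prethalamus, eminence and hypothalamus list. LHX2 and BARHL2 were higher too, with calls lost in the fit of 6 libraries. OLIG3, GSX1 and PAX6 were at or near 0, and TCF7L2 was at a level that other D11 classes shared in part.

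In the telencephalon list, 2 of 6 tested members were higher and 1 lower. NR2E1, a nuclear receptor of forebrain progenitors, was at 20.4 and 14.0 CPM against 5.11 and 3.13 (log2 difference 2.05, SE 0.22, edgeR adjusted p = 6.26e-06). EOMES, a T-box gene of cortical precursors, had no UMI in any D11 class, and EMX1 and TBR1 stayed at or under 0.31 CPM in rule cells. OTX2, which marks both forebrain and midbrain, was at 164 and 151 CPM against 52.0 and 43.8 (log2 difference 1.66, SE 0.13, edgeR adjusted p = 1.61e-07). It was the 1 member of the dorsal and caudal midbrain list that was higher, while 6 of 10 were lower, with a median log2 difference of -1.22.

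Genes of the isthmus and the caudal midbrain were at low levels and varied between the replicates. EN1, a homeobox gene of midbrain and isthmus, was at 6.41 CPM in rule cells of replicate A and 29.9 in B, against 37.9 and 53.4 in other cells (log2 difference -1.56, SE 0.39, edgeR adjusted p = 0.00793). DESeq2 did not call it (adjusted p = 0.378), nor did the fit of 6 libraries (adjusted p = 0.312). PAX5, a paired box gene of the same territory, was at 8.99 and 16.6 CPM against 32.4 and 29.9 (log2 difference -1.43, SE 0.20, edgeR adjusted p = 6.35e-05), a call lost in the fit of 6 libraries (adjusted p = 0.347). FGF8, the isthmic organiser ligand, was at 0.517 and 0.200 CPM, the latter from 1 UMI, against 3.63 and 2.88, and WNT1 had no UMI. All EN1 levels in rule cells were under those of the other cells of the same library, with the gap smaller in B. In the hindbrain list none of 6 tested members was higher and 3 were lower, with a fitted median log2 difference of -3.91, or -2.89 with the member at 0 set at its limit. GBX2, which sets the caudal side of the isthmus, had 1 and 2 UMIs in rule cells and stood at 9.47 and 12.6 CPM in the others. STMN2 cells made up part of the other cells and held most of the hindbrain list, at a summed 387 and 381 CPM, against 5.79 and 6.98 CPM in rule cells and 56.5 and 39.8 CPM in marker-low cells.

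**Figure D2:**
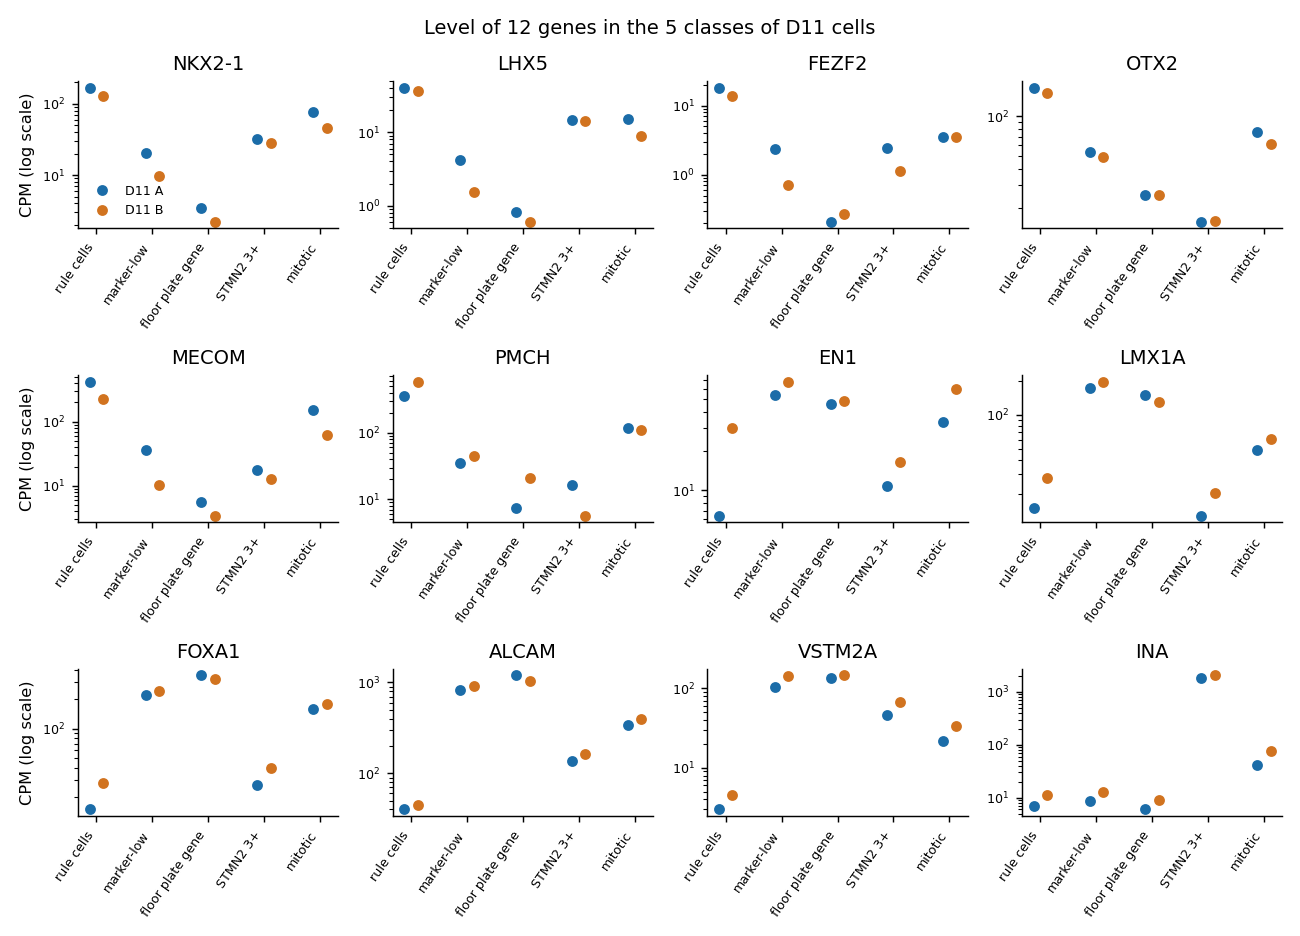
Level of 12 genes (CPM, vertical log axis) in the 5 exclusive classes of D11 cells (horizontal axis), 1 point per library, replicate A and B. NKX2-1, LHX5, FEZF2, MECOM and PMCH were highest in rule cells in both libraries, FOXA1, ALCAM and VSTM2A were lower there than in marker-low cells, and INA stood high in STMN2 cells.

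Every one of the 12 tested floor plate genes beyond the 3 of the rule was lower in rule cells, with a median log2 difference of -2.64. The rule removed cells with 2 or more of FOXA2, SHH and CORIN, so this direction follows the exclusion in part, and marker-low cells are the comparison that shares it. ALCAM, a cell adhesion protein carried by midbrain floor plate cells, was at 40.1 and 45.3 CPM in rule cells, 630 and 641 in all other cells and 827 and 907 in marker-low cells. Its difference from marker-low cells was -4.50 on the log2 scale (SE 0.16, edgeR adjusted p = 6.04e-08). FOXA1, a forkhead factor that acts with FOXA2, was at 14.9 and 27.9 CPM against 222 and 245 in marker-low cells (log2 difference -3.66, SE 0.27, edgeR adjusted p = 3.28e-06). Marker-low cells therefore carried floor plate genes although they had fewer than 2 of the rule's 3, and all 12 genes of the list were lower in rule cells than in them too, with a median log2 difference of -3.15.

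The other floor plate genes fell into larger and smaller differences. NTN1, the axon attractant netrin-1, was at 58.5 and 64.6 CPM against 348 and 322 in all other cells (log2 difference -2.50, SE 0.14, edgeR adjusted p = 6.17e-09). LMX1A, a LIM homeodomain factor of roof plate and dopaminergic progenitors, was at 15.1 and 27.7 CPM against 93.0 and 99.8 (log2 difference -2.29, SE 0.20, edgeR adjusted p = 7.19e-07), and its relative LMX1B was at 1.45 and 2.00 CPM against 14.9 and 14.9. FERD3L, a helix-loop-helix factor of floor plate, rested on 4 and 3 UMIs in rule cells, against 11.0 and 12.6 CPM in the others. The SHH-induced factors NKX6-1 and NKX2-2 were at 3.31 and 6.38 CPM against 29.3 and 28.1, and at 2.07 and 3.19 CPM against 14.1 and 13.3. SLIT2, SPON1 and SULF1, secreted or matrix proteins, differed least. SPON1 was at 833 and 636 CPM against 1112 and 951 (log2 difference -0.55, SE 0.15, edgeR adjusted p = 0.0129). ALCAM, FOXA1, NTN1 and CALCRL kept their calls against all other cells whichever D11 library was left out of the fit of 6, FERD3L and NKX6-1 lost theirs without D11 replicate A alone, and LMX1A, LMX1B, NKX2-2, SLIT2, SPON1 and SULF1 lost theirs without A and without B.

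WNT proteins bind Frizzled receptors and LRP co-receptors and act in the nucleus through LEF1 and TCF factors. Of 9 tested WNT ligands outside the rule, 3 were higher in rule cells than in all other D11 cells and 1 lower, beside 9.97% of all genes higher and 14.9% lower. WNT5B was at 149 and 115 CPM against 48.4 and 35.7 (log2 difference 1.60, SE 0.15, edgeR adjusted p = 1.61e-06), and WNT7A at 16.8 and 15.8 CPM against 7.49 and 5.28. WNT5A, a ligand of the ventral midbrain, was at 8.68 and 10.8 CPM against 33.7 and 35.0 (log2 difference -1.92, SE 0.16, edgeR adjusted p = 2.68e-07). Of 28 tested receptors, feedback genes and targets, 5 were higher and 8 lower, beside the same shares of all genes. LEF1, an effector and target of the pathway, was at 154 and 107 CPM against 38.0 and 25.2 (log2 difference 2.00, SE 0.18, edgeR adjusted p = 1.03e-06). SP5, a direct target, was at 18.8 and 26.3 CPM against 5.81 and 6.43 (log2 difference 1.79, SE 0.17, edgeR adjusted p = 1.77e-06). The secreted antagonists DKK3 and FRZB were lower, DKK3 at 22.6 and 18.8 CPM against 58.1 and 56.9 and FRZB at 14.7 and 19.8 CPM against 36.5 and 45.1. AXIN2, RNF43, ZNRF3 and LGR5, feedback genes of the pathway, did not pass. Of the genes named here only DKK3 kept its call without D11 replicate A, and none kept it without B.

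The organoids were given a Sonic hedgehog protein until day 5, and its receptor PTCH1 is also a target of the pathway. Of 13 tested SHH receptors and targets, 3 were higher and 5 lower than in all other D11 cells, where 9.97% of all genes were higher and 14.9% lower. PTCH1 was at 146 and 112 CPM against 102 and 79.9 (log2 difference 0.45, SE 0.15, edgeR adjusted p = 0.0342). GLI3, mainly a repressor of SHH targets, was at 47.1 and 35.3 CPM against 32.9 and 24.7 (log2 difference 0.48, SE 0.15, edgeR adjusted p = 0.0319). DESeq2 did not call GLI3 (adjusted p = 0.0617), and neither gene passed in the fit of 6 libraries. Against floor plate gene cells the differences were larger, 0.99 for PTCH1 and 0.90 for GLI3. HHIP, a feedback inhibitor that binds SHH, was at 18.7 and 16.4 CPM in rule cells, 4.67 and 4.79 in marker-low cells and 1.41 and 1.14 in floor plate gene cells (log2 difference 3.63, SE 0.17, edgeR adjusted p = 8.51e-08 for the last). Among lower genes were the ventral factors NKX2-2 and NKX6-1 given above.

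FGF, BMP and retinoic acid lists held members past the threshold in both directions, beside 9.97% of all genes higher and 14.9% lower than in all other cells. Of 17 tested FGF ligands, feedback genes and targets, 3 were higher and 4 lower than in all other cells, and 8 higher and 5 lower than in marker-low cells, where 15.4% and 17.8% of all genes were. The feedback inhibitor SPRY2 was at 59.4 and 57.9 CPM against 29.5 and 29.4 in marker-low cells (log2 difference 0.85, SE 0.13, edgeR adjusted p = 0.000428). ETV5, a target of FGF signalling, was at 35.1 and 45.5 CPM against 70.9 and 75.7 (log2 difference -1.03, SE 0.14, edgeR adjusted p = 0.000232). Of 15 tested BMP ligands, inhibitors and targets, 3 were higher and 4 lower than in all other cells. ID2 and ID3, inhibitors of helix-loop-helix factors and BMP targets, stood on opposite sides, with ID2 at 139 and 158 CPM against 39.8 and 35.4 (log2 difference 1.92, SE 0.13, edgeR adjusted p = 4.40e-08) and ID3 at 14.5 and 23.5 CPM against 62.3 and 76.7 (log2 difference -1.99, SE 0.20, edgeR adjusted p = 1.91e-06). ID3 did not pass in the fit of 6 libraries (adjusted p = 0.167). BMP6 was at 15.1 and 10.6 CPM against 5.77 and 4.25, and BMP7 at 8.58 and 13.2 CPM against 37.7 and 46.1. BMP6 was not called in the fit of 6 libraries (adjusted p = 0.0649). Of 10 tested retinoic acid genes 1 was higher and 3 lower. In the roof plate and cortical hem list 4 of 13 were higher and 3 lower. RSPO3, which strengthens WNT signals, was at 2.69 and 5.59 CPM against 0.749 and 1.18 (log2 difference 1.91, SE 0.38, edgeR adjusted p = 0.00147), a call lost in the fit of 6 libraries (adjusted p = 0.193). Its relative RSPO2 was at 20.2 and 62.9 CPM against 81.1 and 83.0 (log2 difference -1.11, SE 0.31, edgeR adjusted p = 0.0160), a call that DESeq2 did not make (adjusted p = 0.324).

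**Figure D3:**
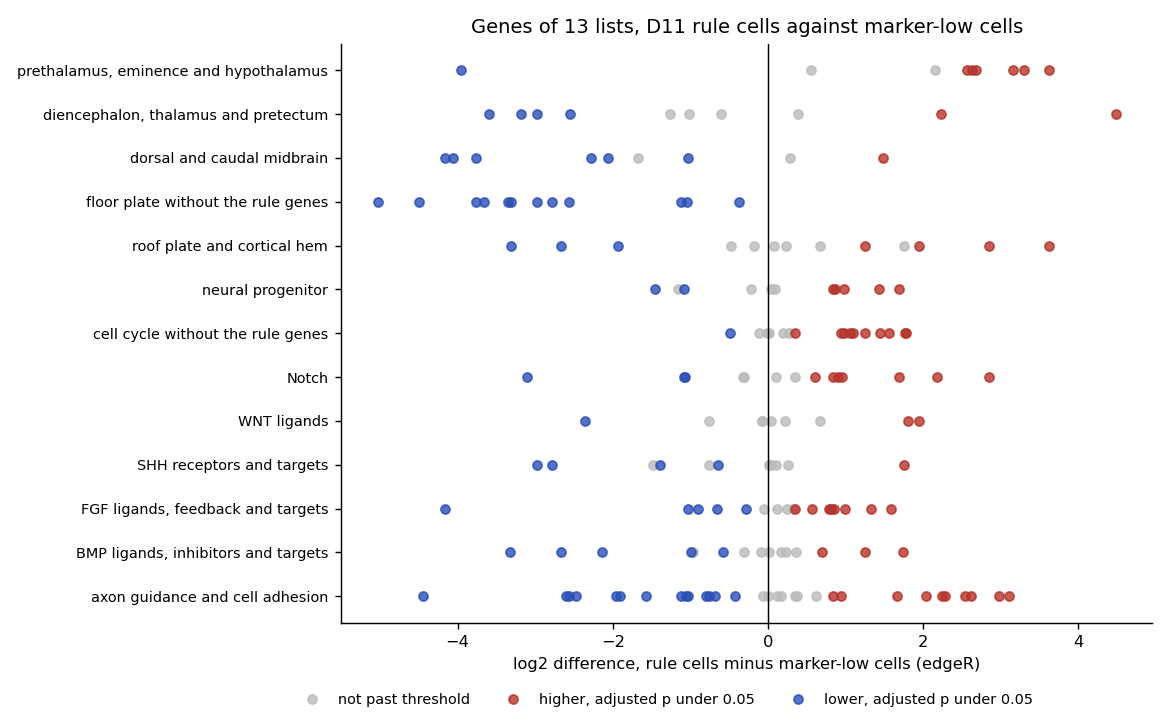
Log2 difference of each tested gene of 13 lists between rule cells and marker-low cells of D11 (edgeR, horizontal axis), red for higher, blue for lower and grey for not past the threshold; genes with under 3 UMIs in either class are not drawn. All 12 floor plate genes lay below 0, while the Notch, FGF and guidance lists held called genes on both sides.

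Notch signalling passes from a ligand on one cell to a receptor on its neighbour, and neural progenitors respond with HES and HEY factors while cells on the way to neurons raise DLL ligands. Of 14 tested Notch genes, 7 were higher in rule cells than in all other D11 cells and 4 lower, with a median log2 difference of 0.54. DLL3, a member of the ligand family, was at 103 and 65.6 CPM against 9.54 and 7.18 (log2 difference 3.30, SE 0.18, edgeR adjusted p = 7.03e-09) and passed whichever D11 library was left out of the fit of 6. DLL1 was at 42.5 and 27.7 CPM against 10.2 and 7.48, and the ligand JAG1 at 89.3 and 114 CPM against 49.4 and 43.6. HES5, a target in progenitors, was at 116 and 115 CPM against 39.8 and 35.2 (log2 difference 1.57, SE 0.12, edgeR adjusted p = 1.77e-07). HES1 and HEY1, which are targets too, were lower, HES1 at 69.0 and 101 CPM against 114 and 162. HES1 and HEY1 did not pass in the fit of 6 libraries (adjusted p = 0.251 and 0.245).

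Among 12 tested neural progenitor genes, 5 were higher and 2 lower, beside 9.97% and 14.9% of all genes. SOX9 was at 50.04 and 46.1 CPM against 23.9 and 17.9 (log2 difference 1.15, SE 0.14, edgeR adjusted p = 1.69e-05), and FABP7, a fatty acid binding protein of radial glia, at 211 and 241 CPM against 113 and 108, a call lost in the fit of 6 libraries (adjusted p = 0.0619) and without D11 replicate A (adjusted p = 0.619) or B (adjusted p = 0.721). NES, the intermediate filament of neural stem cells, was lower at 247 and 252 CPM against 600 and 650 (log2 difference -1.39, SE 0.13, edgeR adjusted p = 1.46e-06). In the cell cycle list, 9 of 16 tested genes were higher than in all other cells and 5 lower. The 5 were genes of mitosis such as CDK1, CCNB1 and PLK1, which the rule's 5 mitotic genes accompany. The DNA replication gene MCM4 was at 64.1 and 67.6 CPM against 32.8 and 30.4 (log2 difference 1.00, SE 0.12, edgeR adjusted p = 1.43e-05). PCNA, the sliding clamp of DNA polymerase, was at 199 and 242 CPM against 152 and 150 in all other cells and 58.3 and 57.9 in marker-low cells. Its difference from marker-low cells was 1.78 (SE 0.12, edgeR adjusted p = 2.09e-06), whereas that from all other cells was lost in the fit of 6 libraries (adjusted p = 0.614). With the mitotic cells out of both classes, 10 of 16 cell cycle genes were higher than in marker-low cells and 1 lower.

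The neuron list was set in part by the exclusion of STMN2 cells. Of 11 tested genes 2 were higher than in all other cells and 7 lower, and against marker-low cells 3 were higher and none lower, beside 15.4% and 17.8% of all genes. MAP2, a dendritic microtubule protein, was at 1142 and 866 CPM against 491 and 336 in marker-low cells (log2 difference 1.14, SE 0.19, edgeR adjusted p = 0.000974). DCX was at 78.7 and 56.3 CPM against 32.1 and 19.6, and ELAVL3 at 44.8 and 41.1 CPM against 22.2 and 14.0.

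Axon guidance and cell adhesion genes split evenly, with 11 of 31 higher than in all other D11 cells, 12 lower, and a median log2 difference of 0.01. ROBO1, a receptor for SLIT proteins, was at 947 and 696 CPM against 372 and 255 (log2 difference 1.33, SE 0.18, edgeR adjusted p = 3.81e-05). EPHA7, an ephrin receptor, was at 681 and 486 CPM against 220 and 149 (log2 difference 1.61, SE 0.18, edgeR adjusted p = 7.55e-06). CDH8, a cadherin, was at 285 and 229 CPM against 67.6 and 43.1, and the repellent SEMA3A at 187 and 118 CPM against 47.5 and 24.7. The ligands of ROBO1 were lower, SLIT1 at 36.6 and 49.7 CPM against 224 and 210 and SLIT3 at 39.2 and 46.3 CPM against 280 and 262 (log2 difference -2.73, SE 0.14, edgeR adjusted p = 4.20e-09). PCDH8, higher, and SLIT3 and SEMA3D, lower, kept their calls whichever D11 library was left out of the fit of 6, and ROBO1 did not pass in the fit of 6 libraries (adjusted p = 0.112).

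Outside the lists, the genes with the largest rises against all other cells included a hypothalamic peptide. PMCH was at 356 and 586 CPM against 62.6 and 61.7 (log2 difference 2.86, SE 0.20, edgeR adjusted p = 5.16e-08), and was not called in the fit of 6 libraries (adjusted p = 0.0899), nor without D11 replicate A (adjusted p = 0.549) or B (adjusted p = 0.729). Its level in rule cells of B was 495 CPM without the 1 cell that held 466 of the 2939 UMIs. MECOM, a zinc finger transcription factor, was at 423 and 228 CPM against 78.5 and 31.2 (log2 difference 2.53, SE 0.32, edgeR adjusted p = 2.89e-05). The other genes with the largest rises were CDH19, a cadherin at 88.6 and 40.3 CPM against 14.4 and 5.64, ADAMTS20, a secreted protease at 193 and 132 CPM against 35.6 and 17.7, the proton pump subunit gene ATP6V1C2, the sodium and calcium exchanger gene SLC8A3, NHSL2 and GABRB2, a subunit of the GABA-A receptor. NHSL2, GABRB2 and SLC8A3 kept their calls whichever D11 library was left out, and MECOM, CDH19, ADAMTS20 and ATP6V1C2 did not.

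Against marker-low cells further genes entered among the largest rises. FST, which encodes the activin and BMP antagonist follistatin, was at 82.3 and 124 CPM against 11.0 and 7.52 (log2 difference 3.32, SE 0.22, edgeR adjusted p = 1.58e-06). SIM1, a transcription factor of hypothalamic neuron lineages, was at 25.4 and 34.7 CPM against 2.86 and 2.66 (log2 difference 3.27, SE 0.18, edgeR adjusted p = 6.40e-07). LMO2, a LIM-only cofactor, was at 21.2 and 21.1 CPM against 1.88 and 1.99. All 3 were named among genes with libraries apart between the classes, a condition that 66.3% of all genes met. Against floor plate gene cells the largest rises were in CDH19, at 88.6 and 40.3 CPM against 0.494 and 0.414, MECOM, CAPN6, LHX5, NKX2-1, SIM1, ADAMTS20, DLL3, TAFA2 and KCND2, a potassium channel subunit at 264 and 241 CPM against 8.12 and 4.79. OLIG1, a helix-loop-helix factor of glial lineages, was at 8.68 and 7.98 CPM against 0.776 and 0.384 in all other cells (log2 difference 3.81, SE 0.31, edgeR adjusted p = 2.60e-07). It was 1 of 3 glia list members higher of 6 tested, with none lower.

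The largest falls against all other cells were in GASK1B, INA, HLA-DRA, NYAP2, ISL1, THRB, C1QA, VSTM2A, PCSK2 and SLC5A7. INA, a neuronal intermediate filament, was at 6.82 and 11.2 CPM against 230 and 271, ISL1, a homeobox gene of motor neurons, at 0.930 and 4.59 CPM against 50.8 and 58.7, and SLC5A7, the choline transporter of cholinergic neurons, at 3.62 and 5.59 CPM against 86.4 and 88.6. INA was at 1867 and 2054 CPM in the STMN2 cells that the rule excludes, and its level in marker-low cells, 8.78 and 12.6 CPM, was near that of rule cells. Against marker-low cells the largest falls were VSTM2A, at 3.00 and 4.59 CPM against 104 and 144, C1QA, at 1.96 and 4.99 CPM against 69.5 and 113, ELAPOR1, TENT5A, ABCA8, LRTM1, SEMA3D, ALCAM, CD36 and COL2A1. Against floor plate gene cells they were GASK1B, C1QA, FERD3L, THRB, ABCA8, VSTM2A, SERTM1, HLA-DRA, LRTM1 and CD36. C1QA is a complement gene of immune cells, but its level was 133 and 160 CPM in floor plate gene cells, and whether the UMIs counted under this symbol come from that gene was not tested. Of the endothelial and immune list 1 of 7 tested members was higher and 2 lower than in all other cells. Mesenchyme genes summed to 5.48 and 4.59 CPM in rule cells against 18.0 and 32.6 in marker-low cells, with 0 of 7 tested members higher and 3 lower than in all other cells. Of the neural crest list 0 of 4 were higher and 1 lower, of the pluripotent and epithelial list 0 of 5 and 3, of the retina and eye list 1 of 6 and 2, of the alar and intermediate progenitor list 3 of 8 and none. Of the stress, hypoxia and interferon list 0 of 15 were higher and 5 lower.

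The rule cells were not uniform. NKX2-1 was found in 75.1% and 68.2% of rule cells of replicates A and B, and the top 5% of cells held 17.3% and 19.6% of its UMIs. PMCH was found in 32.8% and 34.3%, and the top 5% of cells held 53.4% and 67.0% of its UMIs. It was found in 2.92% and 4.05% of floor plate gene cells, with medians of 11172.5 and 11080 UMIs. The part of free RNA in these shares was not measured. DLL3 was found in 18.8% and 15.8%, against 1.49% and 1.55% of floor plate gene cells, with 71.8% and 76.6% of its UMIs in the top 5%. NKX2-1 was thus spread widely, while PMCH and DLL3 were concentrated in a minority. In cells with DLL3, SIM1 was at 84.0 and 130 CPM against 11.4 and 17.0 in those without, and PCNA at 83.5 and 139 CPM against 227 and 261. Such splits within one set of cells are a description with no test.

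The replicates differed in the share of rule cells with a UMI of some genes. BARHL2 was found in 4.38% of rule cells in A and 16.2% in B, against 0.314% and 0.719% of STMN2 cells, which were deeper, with medians of 11983.5 and 12001.5 UMIs. RSPO2 was found in 5.24% and 15.4% of rule cells against 2.83% and 6.99% of STMN2 cells. LMX1A was found in 5.02% and 13.01% against 5.74% and 9.28%, and EN1 in 4.38% and 12.8% against 9.67% and 11.8%. IRX3 was found in 1.28% and 10.0% against 9.43% and 9.93%. For LMX1A, EN1 and IRX3 the share in rule cells of A was below that of STMN2 cells. STMN2 cells may carry these genes themselves, and the part of free RNA in any of these shares was not measured. Single rule cells held up to 21 and 11 UMIs of LMX1A. All 5 shares were higher in B, at nearly equal median depth of the rule cells. RSPO2 was at 251 and 338 CPM in rule cells with LMX1A and at 5.82 and 21.6 CPM in those without. PMCH was at 901 and 1968 CPM in cells with LMX1A and at 323 and 379 CPM without. Cells with LMX1A thus held more RSPO2 and PMCH UMIs in both libraries, but the PMCH sums can rest on few cells. In A, PMCH was found in 46.8% of the 47 cells with LMX1A and 32.1% of those without. Single rule cells held 149 of 3447 PMCH UMIs in A and 466 of 2939 in B. Levels in the cells with LMX1A were not read without these.

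Rule cells with a given marker were then compared with rule cells without it. A rule cell without 1 marker must hold 2 of the other 3, so these contrasts overlap. By DBX1, 42 of 12156 genes were higher (0.346%) and 11 lower (0.0905%) in the cells that carried it, 0.436% in all. With the replicate as a block 340 passed, 215 higher and 125 lower. DESeq2 called 20, 17 higher and 3 lower, and without a filter on low counts 129 passed, 94 higher and 35 lower. SIM1 was at 36.5 and 44.2 CPM with DBX1 and 6.92 and 7.03 without (log2 difference 2.54, SE 0.25, edgeR adjusted p = 7.00e-05). WFDC1, a secreted protein, was at 54.8 and 77.4 CPM against 10.5 and 12.5 (log2 difference 2.58, SE 0.25, edgeR adjusted p = 7.00e-05). Higher too were GADD45G, a stress and differentiation gene of neuronal precursors, at 55.8 and 33.8 CPM against 9.13 and 9.38, DLL3 at 140 and 80.1 CPM against 41.2 and 23.4, HES6, ACTC1, THSD7B and CDKN1C, an inhibitor of cyclin-dependent kinases. Lower were LUZP2, at 46.0 and 17.7 CPM against 209 and 105, NCAM2, CAPN6, EPHA5, the glutamate transporter SLC1A3 and LHX2, at 26.1 and 16.3 CPM against 49.0 and 48.5. The libraries of the 2 classes did not overlap for DLL3 and LHX2, as for 29.7% of all genes tested. SIM1, WFDC1, GADD45G and LUZP2 were named among genes without overlap, so theirs was set by that choice.

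By WNT8B, DLL3, HES6, GADD45G, CDKN1C, SIM1 and EBF2, which were higher with DBX1, were lower. Of 11604 genes 7 were higher (0.0603%) and 86 lower (0.741%) in cells with WNT8B, 0.801% in all, with 293 under the replicate block and 30 by DESeq2. PCLAF, RFC3 and KNTC1, genes of DNA replication and the mitotic checkpoint, were higher, PCLAF at 63.6 and 99.7 CPM against 38.1 and 32.9 (log2 difference 1.15, SE 0.24, edgeR adjusted p = 0.00737), as were ATP6V1C2 and LRRC3B. DESeq2 called none of these 5, with adjusted p from 0.0506 for ATP6V1C2 to 0.373 for RFC3, and all 30 of its calls were lower. EBF2, a transcription factor of new neurons, was at 10.5 and 10.7 CPM with WNT8B and 62.1 and 34.4 without (log2 difference -2.28, SE 0.26, edgeR adjusted p = 1.96e-07). ST18 and RUNX1T1, transcriptional regulators of differentiating neurons, GADD45G, CLSTN2, DLL3, HES6, CDKN1C, SIM1, RSPO2 and LMX1A were lower too. DLL3 was at 78.6 and 50.3 CPM with WNT8B and 276 and 160 without. TUBB3, a neuronal tubulin, was at 154 and 169 CPM with WNT8B against 335 and 271 (log2 difference -0.93, SE 0.17, edgeR adjusted p = 0.000830).

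By EMX2, 6 of 11723 genes were lower (0.0512%) and none higher. The replicate block called 268, with 79 higher and 189 lower. DESeq2 called 1, and without the filter on low counts 81 passed, with 8 higher and 73 lower. RSPO2 was at 9.09 and 15.7 CPM in cells with EMX2 and 42.7 and 117 without (log2 difference -2.78, SE 0.39, edgeR adjusted p = 0.0122). LMX1A was at 9.56 and 9.36 CPM against 26.4 and 48.7 (log2 difference -1.96, SE 0.27, edgeR adjusted p = 0.0122). Both genes also fell with the number of markers. From 2 markers to 4, RSPO2 went from 41.4 and 97.1 CPM to 5.00 and 12.5, and LMX1A from 27.1 and 35.6 to 2.73 and 3.84. Cells with EMX2 and OTX1 alone held LMX1A at 56.9 CPM in A and 0 in B. The part of marker number in the differences by EMX2 or WNT8B was not tested. TTC6 and ADAMTS9 were the others named by the rule for genes. The call by DESeq2 was LMX1A, and it did not call RSPO2 (adjusted p = 0.604). By OTX1 no gene of 11875 passed by edgeR, with 158 at an unadjusted p under 0.05 and libraries apart for 24.3%. DESeq2 called 0 too, with 22 at an unadjusted p under 0.05, the replicate block called 30, and 10 passed without the filter. No test of the difference between these 4 contrasts was made.

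**Figure D4:**
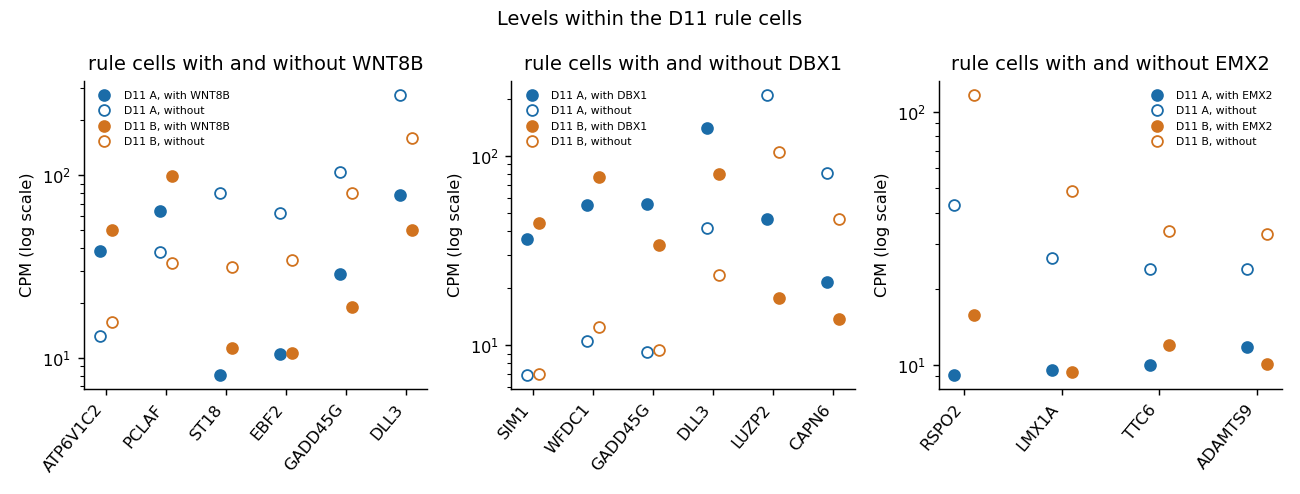
Level of selected genes (CPM, vertical log axis) in D11 rule cells with (filled) and without (open) WNT8B, DBX1 or EMX2 in replicates A and B, 1 point per library. SIM1 and WFDC1 lay higher with DBX1 in both libraries, EBF2 and DLL3 lower with WNT8B, and RSPO2 and LMX1A lower with EMX2.

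Cells with 2 or more of the 4 markers were also found among dividing cells. Of all D11 cells with 2 or more markers, 61.9% and 70.3% were in the mitotic class, against 31.6% and 33.1% of cells with 2 or more floor plate genes. After thinning to 2000 UMIs narrower sets were read, with 2 or more of the one kind of gene and fewer than 2 of the other. Their mitotic shares were 25.1% and 31.5% for the markers against 11.99% and 12.8% for the floor plate genes. Of all D11 cells, the mitotic class held a mean of 34.9% at full depth and 15.4% after thinning. The mitotic cells with 2 or more markers that the other exclusions left in numbered 1562 and 1177, more than the rule cells themselves. They held NKX2-1 at 163 and 134 CPM and PMCH at 238 and 286 CPM, close to rule cells for NKX2-1. These dividing cells belong to the other D11 cells in the first comparison and hold more NKX2-1 than the sum over those cells, which was at 42.4 and 25.0 CPM.

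The same rule was applied to the libraries of D28 and D45, which it had not used. It took 21 and 304 cells of D28 A and B and 64 and 210 of D45 A and B. As shares of cells within the limits this was 1.49% ± 1.78 on D28 and 1.25% ± 0.90 on D45 (SD, n = 2 libraries), and 0.659% and 0.104% after thinning to 2000 UMIs. D28 differed widely between its libraries, and its sums in A rest on 277434 UMIs, so values of D28 A are imprecise.

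**Figure D5:**
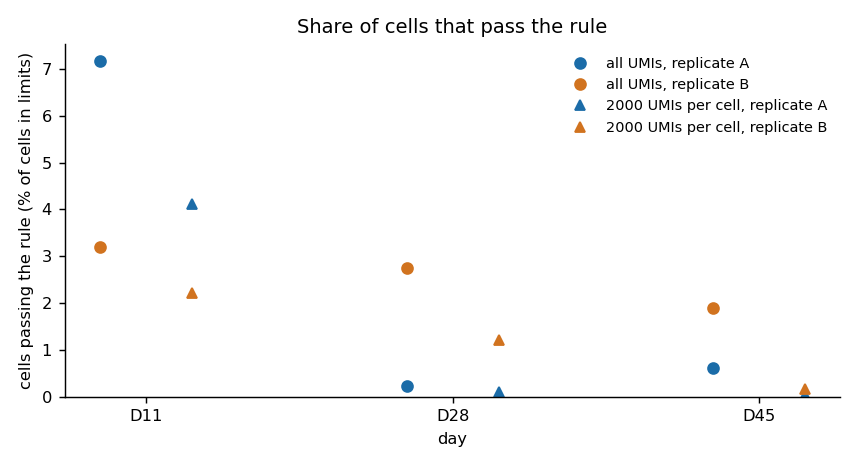
Share of cells within the limits that pass the rule (%, vertical axis) on D11, D28 and D45 (horizontal axis), circles with all UMIs and triangles after thinning to 2000 UMIs per cell, 1 point per library. The share was 7.17% and 3.20% on D11, and on D28 replicates A and B lay far apart.

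NKX2-1 was higher in the cells taken by the rule on both later days. On D28 it was at 93.7 and 106 CPM in replicates A and B against 15.9 and 33.3 in other cells (log2 difference 2.00, SE 0.42, edgeR adjusted p = 0.0129). On D45 it was at 110 and 104 CPM against 29.5 and 41.4 (log2 difference 1.66, SE 0.20, edgeR adjusted p = 0.00101). OTX2 was at 86.5 and 100 CPM against 19.5 and 16.9 on D28 and at 39.5 and 55.8 CPM against 12.3 and 18.0 on D45, with log2 differences of 2.29 and 1.78. LHX2 on D28 was at 112 and 101 CPM against 6.96 and 20.5. DLL3, at 46.9 and 46.7 CPM against 7.56 and 4.14, and HES5, at 90.1 and 81.0 CPM against 5.91 and 12.8, were higher on D28 as on D11. In all these differences the other cells include the STMN2 cells that the rule excludes, a mean of 53.1% of D28 and 45.2% of D45 cells. Genes of progenitors can rise by that exclusion alone, and its part here was not tested.

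In all, 79 of 18876 genes were higher (0.419%) and 338 lower (1.79%) on D28, with 1918 under the replicate block and 920 without a filter on low counts. The largest rises were in HTR2C, a serotonin receptor, at 82.9 and 96.4 CPM against 3.27 and 5.40, PMCH, SLCO1C1, a thyroid hormone transporter, ADAMTS20 and HES5. PMCH stood at 692 CPM in A, from 21 cells, but at 30.3 CPM in B, against 14.0 and 22.5. The largest falls were in NTS, ARPP21, DCN, NRN1 and IL1RAPL2, of which NTS, a neuropeptide gene, had no UMI in A and 3 in B. On D45, 1053 of 19413 genes were higher (5.42%) and 1651 lower (8.5%), with libraries apart for 61.1% and 5017 under the replicate block. NPR3, a natriuretic peptide receptor, was at 233 and 144 CPM against 28.2 and 25.3, SIM2, a relative of SIM1, at 185 and 187 CPM against 18.9 and 35.4, and the roof plate factor MSX1 at 33.7 and 30.4 CPM against 4.29 and 5.83. RSPO2 and LIX1 were the other largest rises. The largest falls were in neuron and glia genes, NDST4, MOG, GAD1, DLX5 and MYT1L, each with at most 2 UMIs in either library of the cells taken. The STMN2 class, which the rule excludes, made up a mean of 53.1% of D28 and 45.2% of D45 cells. Low neuron genes on both days follow that exclusion in part, and no comparison with marker-low cells was made there. On D28 the median log2 difference was -2.15 for the neuron list, 0.99 for the neural progenitor list and 1.11 for the Notch list.

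Of the 1906 genes higher on D11, 60 were also higher on D28 and 8 lower, the 60 being 75.9% of the genes higher on D28 and 3.21% of the D11 genes tested there. On D45, 253 were higher, 24.0% of its list and 13.5% of the D11 genes tested there, and 205 lower (11.0%). Of the genes lower on D11, 266 of 2805 tested were lower on D28 (9.48%) and 645 of 2780 on D45 (23.2%). The other way, 5 (0.178%) and 273 (9.82%) were higher. Of all genes, 0.419% were higher and 1.79% lower on D28, and 5.42% and 8.5% on D45. The rule applies the same exclusions on every day, and shared falls follow these in part. Shared rises may follow them too, which was not tested. The days share no library, and the other cells of each day differ in kind, with STMN2 cells making up 53.1% of D28 and 45.2% of D45 cells against 10.1% on D11.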

How the data were processed

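The deposited matrices hold whole UMI counts per gene and cell barcode, which the authors made with Cell Ranger 8.0.1 on Sscrofa11.1 and, per the labels, handled further with Seurat 4.3.0. The study's Wilcoxon test over cells was not used, since cells are not replicates. D11, D28 and D45 have 2 libraries each. D11 libraries held 162398792 and 182113104 UMIs. Of 30477 genes, 16266 carried a symbol in the files and 844 were named by RefSeq of the same build. The cells, lists and comparisons were chosen with earlier results of these data known.

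Barcodes with 2000 or more UMIs and at most 7000 detected genes were kept, with no mitochondrial limit. Each D11 cell went to the first class that held of mitotic, STMN2, floor plate gene, then rule or marker-low. Counts were summed per library and class (at least 20 cells), and tested with edgeR 4.0.16 in R 4.3.3 (TMM, filterByExpr, quasi-likelihood, two-sided, Benjamini-Hochberg over all tested genes, threshold 0.05). The 13 rule genes stayed in the fits but have no test. The comparison with all other cells used 4 sums, those with marker-low and floor plate gene cells shared a fit of the 5 classes. Doublets were kept and called against simulated doublets (0.4% per 1000 cells) for an alternative. Detection was also read after thinning to 2000 UMIs. A gene at 0 has a limit of 3 UMIs, and levels and limits cover counting error only. Classes of a library share it, so the replicate letter pairs them. Deviations from class means correlated at 0.100 to 0.318 between classes, from the 2 libraries of each comparison.

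Named genes were the 13 rule genes, list genes past the threshold or defining a list, and the 10 largest changes each way (5 within rule cells and on later days) with a symbol, 20 CPM or more in the higher class in both libraries and no overlap. Within rule cells, CDKN1C and, by DBX1, EBF2 and, by WNT8B, SIM1 were added after their values were seen. Some genes of the lists are counted but not reported by name here. The test was checked on simulated data. For the comparison with all other cells it recovered 61% of genes changed 1 log2 unit and 18% of those changed by 0.5, with 2 false calls among 19132 genes. Simulated sums were independent, with 200 genes changed and an assumed biological coefficient of variation of 0.1, and without selection of cells. They do not give the rate of false calls in these data. Alternatives were DESeq2 1.42.0, its size factors, no filter on low counts, the replicate block, doublets removed, a mitochondrial limit of 10%, the rule after thinning, at least 3 markers, comparison cells with none of the markers, and a fit of all 6 libraries with each D11 library left out in turn.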

Additional observations from a re-analysis of the deposited data

Results flagged for a closer look

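Several genes named on D11 lay on the opposite side of the other cells on a later day, in both libraries each time, and the difference between the days was not tested. EPHA7, ROBO1, LEF1 and SIX3, higher in rule cells on D11, were lower in the cells that the same rule took on D45, with log2 differences of -2.06, -1.69, -0.74 and -2.68. EPHA7 was at 9.64 and 9.04 CPM there against 41.0 and 40.3 in other D45 cells. ROBO1 was at 113 and 98.0 CPM against 422 and 291.

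FOXA1, LMX1A, WNT5A and ID3, lower in rule cells on D11, were higher on D45, with log2 differences of 1.04, 1.28, 1.38 and 1.70. LMX1A was at 74.2 and 69.9 CPM against 22.2 and 39.6, and ID3 at 460 and 479 CPM against 117 and 187. RSPO2, lower on D11, was higher on D28 and D45, with log2 differences of 2.48 and 2.74, and stood at 181 and 167 CPM on D45 against 19.1 and 35.2. Among list genes 13 were higher on D11 and lower on D45 and 13 the reverse, and on D28 the counts were 0 and 2. These counts also asked that both libraries agree, and no share of list genes was taken. Over all genes, 11.0% of those higher on D11 and 9.82% of those lower were called the other way on D45. On D28 these shares were 0.428% and 0.178%. Of all genes tested, 13.9% were called in either direction on D45 and 2.21% on D28. The other cells of D45 are of other kinds than those of D11, with STMN2 cells at 45.2% against 10.1%, and the part of this in the differences was not tested. Levels in the cells taken differed between the days as well. On D45, EPHA7 and ROBO1 were lower there and LMX1A, ID3 and RSPO2 higher than on D11. Cells taken on D45 were deeper, with medians of 15625.5 and 15896 UMIs against 10384.5 and 10760 on D11. After thinning to 2000 UMIs the rule took 4 and 19 cells of D45, against 64 and 210 at full depth. Whether the rule takes the same kind of cell on both days was not tested.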

How the results depend on the processing

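With the replicate as a block, which pairs classes of the same library, 7478 genes differed between rule cells and all other D11 cells, against 4747 without it, and 293, 340, 268 and 30 within rule cells by WNT8B, DBX1, EMX2 and OTX1, against 93, 53, 6 and 0. On D28 and D45 the block gave 1918 and 5017, against 417 and 2704. Of 431 calls of named genes it changed that of NYAP2 against marker-low cells (adjusted p = 0.0950).

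In the fit of all 6 libraries 1722, 2416 and 3832 genes passed against all other, marker-low and floor plate gene cells, where the fits of D11 gave 4747, 5891 and 7278. Leaving out 1 D11 library from it gave 246 to 331, 316 to 320 and 796 to 968, with the lone D11 sum of a class assumed to vary like the other groups. The share of higher calls was 40.2% against all other cells, 23.2% in the fit of 6 libraries and 7.72% (19 genes) and 4.83% (16 genes) in it without D11 replicate A and B. Against marker-low cells it was 46.4%, and 24.7% and 20.3% without A and B.

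DESeq2 called 30, 20 and 1 genes within rule cells by WNT8B, DBX1 and EMX2. With no filter on low counts 129, 81 and 10 passed by DBX1, EMX2 and OTX1, and 920 on D28. The cause of these shifts was not tested. By WNT8B, 7 genes were higher, against 0 with DESeq2, 11 with its size factors, 22 with no filter on low counts and 100 under the block. All other totals over both directions stayed within 1.5 times of the values given, among them those with doublets removed (4812 against all other cells), after thinning (4214), with at least 3 markers (4378) and against cells with none of the markers (6414). PCLAF, lower than in all other cells by a log2 difference of -0.84, was at 0.064 with the rule after thinning, with no other change of direction among named genes, and 563 of the values under alternatives fell short of the threshold, most of them in the fits of 6 libraries. Depth limits genes under 3 UMIs in rule cells and all values of D28 replicate A.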
